A study of Rattus norvegicus with 50 samples.

Results

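The B cell genes Cd79a, Cd79b, Ms4a1, Blnk, Fcer2, Cr2, Cxcr5 and Pou2af1 were followed in rat lung after inhalation of titanium dioxide nanoparticles, to see whether lymphoid cells had accumulated. These 8 genes were chosen by name, as the gene spots of the array that carry one of these symbols. Spots were found for 7 of the 8, all 7 passed the filter on dim probes, and they were read against the 25208 genes tested. No spot bore the name Cd79a, but the array's LOC100913063 has the gene ID that RefSeq (GRCr8) now gives to Cd79a, so its values stand beside the members and were not counted among the 7.

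Male F344 rats, 12 weeks old, breathed either filtered air (control group) or an aerosol of TiO2 P25 at 10 mg/m3 (exposed group), nose-only, for 6 h per day on 5 days per week over 4 weeks. Lungs were taken at the end of exposure (D0) and on D3, D28, D90 and D180 after it, from 5 control and 5 exposed rats each time. Each of the 50 rats gave 1 one-colour array of total RNA from its accessory lobe, so the values describe 1 whole lobe with all of its cell types, and later groups were also older. Values are log2 signals after quantile normalization, a change is exposed minus control on that scale, and a gene was called a differentially expressed gene (DEG) at a fold change of at least 1.5 with a limma adjusted p under 0.05.

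B cells recognise antigen through a membrane immunoglobulin that signals through its partner chains CD79A and CD79B. The adaptor BLNK then links the kinase SYK to phospholipase C, MS4A1 (CD20), FCER2 (CD23) and CR2 (CD21) are surface molecules of mature B cells, CXCR5 draws B cells towards follicles, and POU2AF1 (OBF-1) is a coactivator that binds octamer DNA together with OCT proteins. In the lung, B cells can gather in bronchus-associated lymphoid tissue beside airways and vessels. Some of these genes are not limited to B cells: macrophages also make BLNK, and follicular dendritic cells carry CR2.

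What each array spot measured is the abundance of 1 stretch of 60 bases of a transcript. The probes shown are those of the genes called on D0, of the Cd79a counterpart and of Ms4a1, since the results below rest on them, and they are written in the sense of the transcript.
Blnk: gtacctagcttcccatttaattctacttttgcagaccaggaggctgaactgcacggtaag
Cd79b: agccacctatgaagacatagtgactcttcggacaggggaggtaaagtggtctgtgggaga
LOC100913063 (Cd79a): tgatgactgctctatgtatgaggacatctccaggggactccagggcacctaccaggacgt
Fcer2: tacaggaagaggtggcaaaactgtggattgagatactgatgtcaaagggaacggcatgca
Ms4a1: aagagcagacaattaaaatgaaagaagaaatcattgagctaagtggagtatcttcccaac
In the array design's rn4 coordinates these lie at chr1:246099688-246102499 (minus strand) for Blnk, chr10:95703614-95703673 (minus) for Cd79b, chr1:80193363-80193422 (plus) for LOC100913063, chr12:2450343-2467898 (plus) for Fcer2 and chr1:213764136-213764195 (minus) for Ms4a1. The Blnk and Fcer2 probes cover 2812 and 17556 bases of genome and therefore cross introns, whereas each of the other 3 lies on 1 unbroken stretch of 60 bases.

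On D0, 3 of the 7 genes were over-expressed DEGs: Blnk at 1.62-fold, Cd79b at 1.60-fold and Fcer2, whose probe was well above background in only 1 of 5 control rats. Among all genes tested on D0, 2.77% were over-expressed DEGs. Pou2af1 was also higher in exposed lungs, below the 1.5-fold limit, so that 4 of 7 passed the adjusted p alone, against 6.93% of all genes. On D3, Blnk alone was called (1.98% of all genes were over-expressed DEGs, and 4.89% were higher by adjusted p alone). No member was a DEG on D28, D90 or D180, when 0.861%, 0.246% and 0.246% of genes were over-expressed DEGs. By adjusted p alone Blnk and Pou2af1 were higher on D28 (2.44% of all genes), and no member was on D90 (0.69%) or D180 (0.635%). At an unadjusted p under 0.05, in either direction, the counts were 5, 2, 3, 3 and 2 of 7 over the 5 days. Of all genes 23.4, 21.8, 16.6, 7.11 and 8.05% passed, so the D3 share was near that of all genes. The D3 and D90 counts include Cxcr5, whose signal was near background.

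The median change of the 7 genes was 0.57 on D0, 0.08 on D3, 0.33 on D28, 0.31 on D90 and 0.27 on D180, while the median of all genes lay between -0.01 and 0.00 on every day. The D0 median is the value of Ms4a1, which was not called and was well above background in 2 of 5 control rats. The number of members with a higher exposed mean was 6, 4, 6, 7 and 7 of 7. These counts include Cxcr5 on every day but D3, although it was well above background on only 1 of 50 arrays. They also include Fcer2 on D28, when no array of either group was well above background. No member was an under-expressed DEG. In whole-lobe RNA, a change in the number of B cells and a change in RNA per B cell cannot be told apart.

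**Figure D1:**
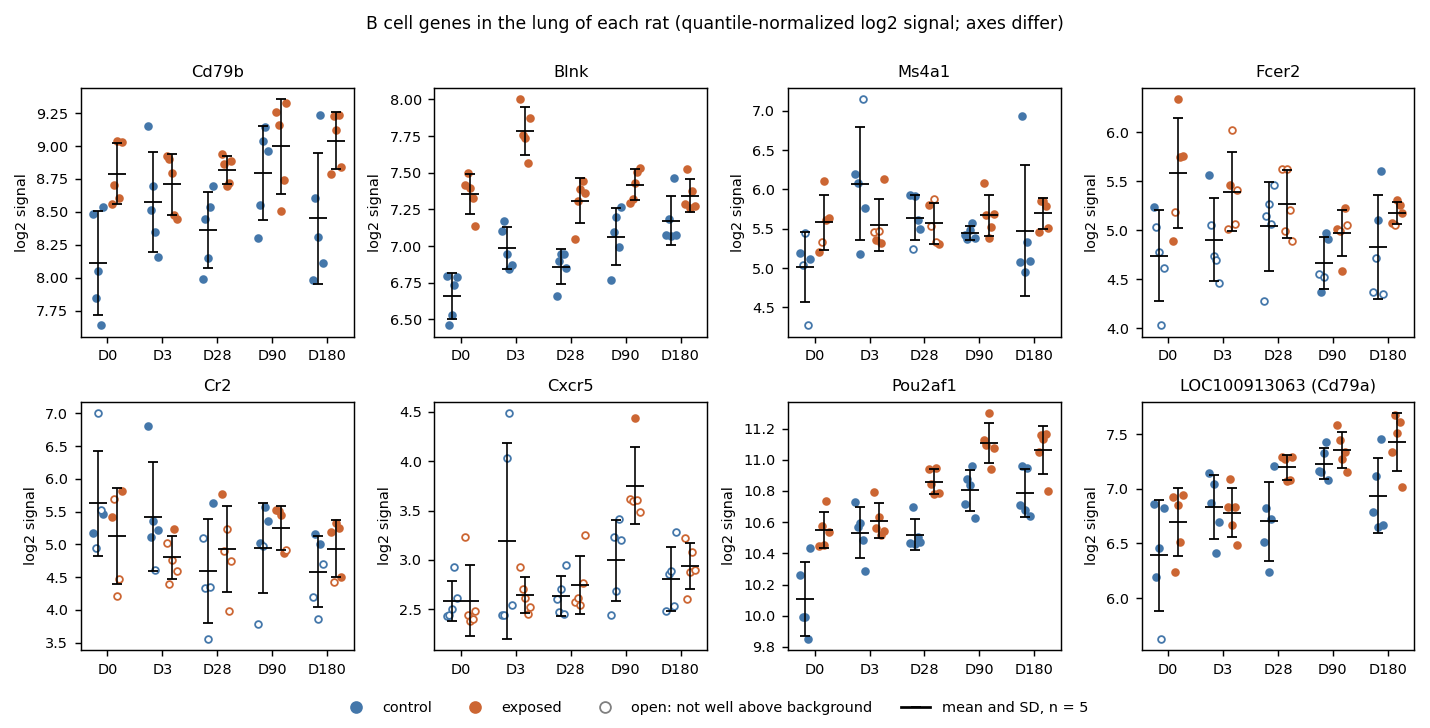
Log2 normalized signal of each B cell gene and of the Cd79a counterpart in every rat, by day after exposure, for control and exposed groups of 5 rats, with the mean and SD as bars and open points for arrays on which the probe was not well above background. The exposed Blnk values lie above every control value on D0, D3, D28 and D90, whereas the Cxcr5 points are open in all but 1 rat.

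Blnk, the adaptor between the receptor and its downstream enzymes, had the smallest adjusted p of the members on D0 and D3. On D0 the control rats had 6.80, 6.46, 6.53, 6.73 and 6.79 and the exposed rats 7.42, 7.50, 7.39, 7.33 and 7.14. All exposed values lay above all control values, with a change of 0.69 ± 0.10 (SE, n = 5 per group; limma adjusted p = 4.25e-07). On D3 the controls had 7.10, 7.17, 6.95, 6.85 and 6.87 and the exposed rats 8.0, 7.76, 7.73, 7.56 and 7.88. The groups were again apart, with a change of 0.80 (1.74-fold, limma adjusted p = 3.1e-08), and exposed exceeded control on each of the 4 slides that held both groups on that day and on each of 4 on D0.

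After D3 Blnk was no longer a DEG. On D28 the controls had 6.66, 6.90, 6.95, 6.95 and 6.85 and the exposed rats 7.05, 7.31, 7.39, 7.45 and 7.36, without overlap. This change of 0.45 passed the adjusted p (0.00245, limma; 0.089 with only the D28 arrays) at 1.37-fold, under the limit for a DEG. On D90 the groups did not overlap either (control 6.77 to 7.26, exposed 7.30 to 7.54), and the change of 0.35 had a limma adjusted p of 0.0551. It was 0.0141 to 0.19 under other settings (lowest with slide as a block) and 0.0302 to 0.311 with 1 rat left out. By D180 the groups overlapped, and the change was 0.17 (95% interval -0.02 to 0.36, limma adjusted p = 0.739).

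Set in order, the 5 control means of Blnk were the lowest of the 10 groups, from 6.66 on D0 to 7.17 on D180, and the 5 exposed means the highest, from 7.31 on D28 to 7.79 on D3. Of the 9 gaps between neighbours, 2 were wider than the 0.19 half-width of the 95% interval of a difference. The DEG call of Blnk on D0 and D3 ended under 2 settings: with normexp correction the changes were 0.47 and 0.53 and with the authors' own values 0.52 and 0.56, under the fold limit, with adjusted p at or below 2.59e-07 in each case. Leaving out any 1 rat left both calls in place.

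Since BLNK is also a macrophage protein, the macrophage marker list was read beside it. On D0 and D3, 1 of its 14 tested genes was called higher on each day, when 2.77% and 1.98% of all genes were. The list's medians were 0.25 and 0.21, with 9 of 14 higher on both days. The log2 of its summed signal, in which the brightest genes weigh most, was also read. It ran from 16.10 to 16.65 in controls and 16.41 to 17.17 in exposed rats on D0, and from 16.30 to 16.82 and 16.41 to 17.38 on D3. Marco was not well above background on any array of D3. The called genes were Ctsk, a lysosomal protease, on D0 (0.92, limma adjusted p = 0.000125) and Siglec1, a macrophage sialic acid receptor, on D3 (0.94, 7.67e-10). The part of these cells in the Blnk result was not tested. Between rats of the same group, the deviations of Blnk had a median correlation of 0.04 with the 14 macrophage markers (highest 0.44, Itgax), 0.22 with the 20 genes of receptor signalling, -0.03 with B cell transcription factors, 0.04 with B cell survival genes and 0.18 with dendritic cell markers, over 50 arrays. These medians do not set B cell lists apart from the others.

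Cd79b, the signalling chain of the receptor, was higher on D0. Control rats had 8.48, 7.85, 8.05, 7.64 and 8.54, and exposed rats had 8.56, 8.71, 9.04, 8.61 and 9.03. The lowest exposed rat lay just above the highest control, so the groups did not overlap, and the change was 0.68 ± 0.20 (SE, n = 5 per group; limma adjusted p = 0.0177). It was higher within each of 4 slides, by 0.05 to 1.19.

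The D0 call for Cd79b rested on single rats and settings. Its adjusted p was 0.0578 without control replicate 2 (change 0.61), 0.079 without control replicate 4 (0.56), 0.0561 without exposed replicate 3 (0.62) and 0.0529 without exposed replicate 5 (0.62), and 0.084 when only the D0 arrays were fitted. With normexp it was 0.51 and with the authors' own values 0.54, both under 1.5-fold.

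On later days the Cd79b changes did not pass the test. They were 0.13 on D3, 0.46 on D28 (control 7.99 to 8.70, exposed 8.69 to 8.94) and 0.20 on D90. On D180 the control rats had 7.98, 8.61, 8.31, 9.24 and 8.11 and the exposed rats 8.79, 9.23, 9.12, 9.23 and 8.84. Control replicate 4 lay just above the highest exposed rat. The D180 change was 0.59 (limma adjusted p = 0.212) with that rat and 0.79 (0.041), past both limits, without it.

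LOC100913063, the counterpart of Cd79a, was not called on any day. On D28 its control rats had 6.52, 6.82, 6.24, 6.73 and 7.20 and its exposed rats 7.29, 7.27, 7.07, 7.08 and 7.29, so 1 control rat reached into the exposed range. That change was 0.50 (limma adjusted p = 0.13), or 0.62 (0.0459) without control replicate 5, which passes both limits. The changes on the other days were 0.30 on D0, -0.05 on D3, 0.13 on D90 and 0.49 on D180. With slide as a block, the adjusted p was 0.0111 on D0, 0.0386 on D28 and 0.0468 on D180, each below 1.5-fold.

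Pou2af1 had the brightest probe of the 7 genes, and its changes had an SE of 0.09. On D0 the controls had 10.26, 9.99, 9.99, 9.85 and 10.43 and the exposed rats 10.45, 10.58, 10.46, 10.73 and 10.54. No values overlapped, and the change of 0.44 ± 0.09 (SE, n = 5 per group) passed the test at 1.36-fold (limma adjusted p = 0.00047, or 0.0707 with only the D0 arrays). On D28 the exposed rats (10.78 to 10.95) again lay above all controls (10.46 to 10.69), with a change of 0.34 (0.0248). The D28 adjusted p was 0.0654, 0.058 and 0.0517 without control replicates 1, 3 and 4, 0.0704 without exposed replicate 4 and 0.0982 with only the D28 arrays.

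On D3 Pou2af1 showed 0.08 with a 95% interval of -0.11 to 0.26, and on D90 and D180 it showed 0.30 and 0.27 (limma adjusted p = 0.123 and 0.2, or 0.0362 and 0.118 with slide as a block). Its other 2 probes, which begin at bases 859 and 795 of the transcript and were much dimmer, gave 0.46 and 0.35 on D0 (adjusted p over 29549 probes 0.225 and 0.148). On D28 they gave 0.07 and 0.02, and the mean of all 3 probes gave 0.14 (0.621), so the brightest probe stood alone on that day.

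POU2AF1 acts at the octamer ATGCAAAT, and upstream sequence was at hand for 3 of the 8 genes (Cd79a, Blnk and Cr2). Among the 250 bases before the start site, only that of Blnk held these letters, on either strand. It is shown because Blnk was called on both D0 and D3, from the RefSeq start in GRCr8 (chr1:249770534-249770783, minus strand, written 5′ to 3′ towards the gene), with the octamer in capitals as its reverse complement, 189 to 182 bases before the start.
Blnk upstream: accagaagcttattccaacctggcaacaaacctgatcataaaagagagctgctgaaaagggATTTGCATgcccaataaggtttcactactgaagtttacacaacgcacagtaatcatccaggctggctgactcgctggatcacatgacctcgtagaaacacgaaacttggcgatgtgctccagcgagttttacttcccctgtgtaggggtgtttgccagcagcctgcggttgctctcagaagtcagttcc
The same letters stand in 523 of 33469 upstream stretches of this length (1.56%). This is a description of letters and shows no binding.

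**Figure D2:**
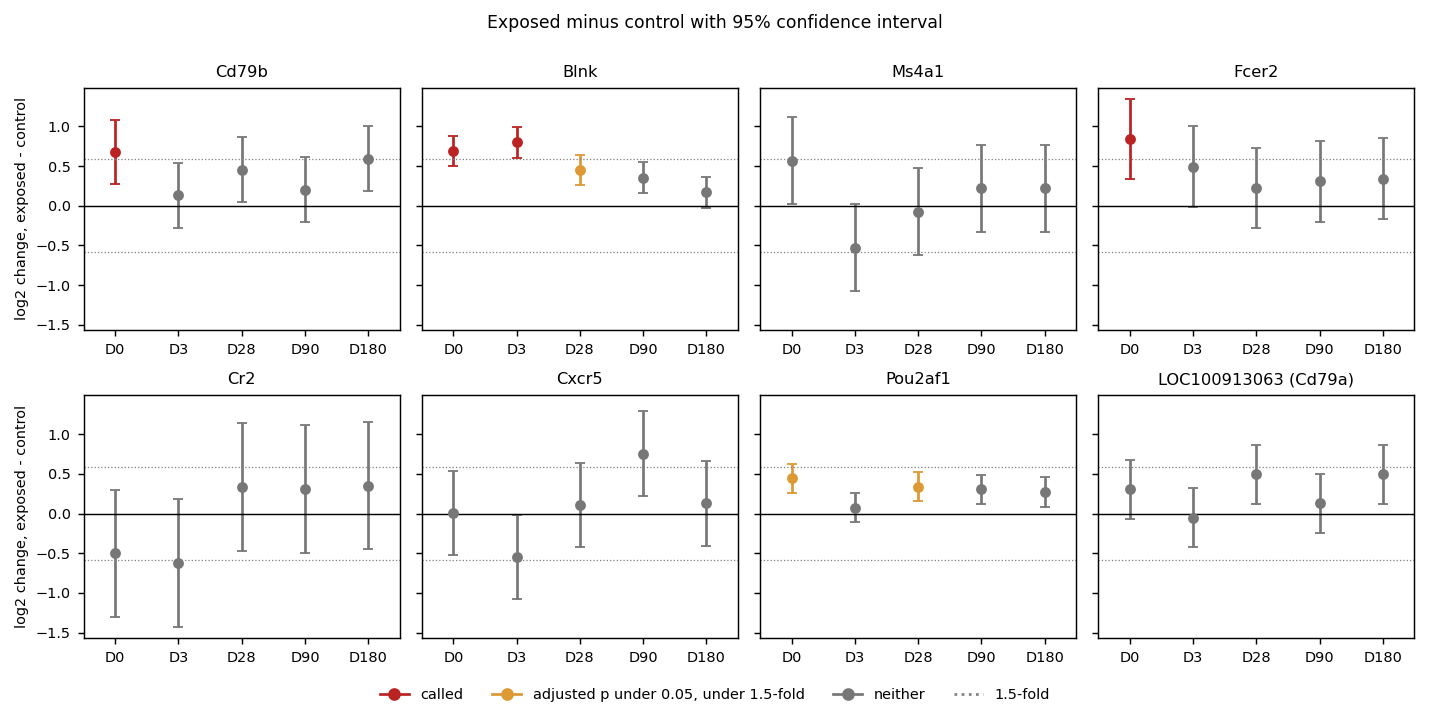
Change in log2 signal, exposed minus control, of each B cell gene on each day, with 95% intervals from the limma fit, dotted lines at the 1.5-fold limit, red for called genes, orange for an adjusted p under 0.05 below the fold limit and grey for neither. Blnk lies above 0 on D0 to D90 and declines to 0.17 on D180, while the intervals of Cr2 reach across 0 on every day.

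Fcer2, the low-affinity IgE receptor, was called on D0 with a dim probe. Controls had 5.24, 5.03, 4.78, 4.03 and 4.61, of which 1 of 5 arrays was well above background, and exposed rats had 4.89, 5.19, 6.34, 5.75 and 5.76, with 4 of 5 well above it. Exposed replicates 1 and 2 lay within the control range and the other 3 above it. The change was 0.84 ± 0.25 (SE, n = 5 per group; limma adjusted p = 0.017).

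This call ended without control replicate 4 (0.67, adjusted p = 0.0882), without exposed replicate 3 (0.66, 0.0944), with only the D0 arrays (0.172) and with scaling to the 75th percentile (0.88, 0.0518). Normexp gave 0.29 and the authors' own values 0.33, both below the fold limit and below the values of Blnk and Cd79b under those settings. Later Fcer2 changes were 0.49 on D3, 0.31 on D90 and 0.34 on D180, with limma adjusted p of 0.247 or more, and on D28 neither group had an array well above background. Over the series, 19 of 50 arrays were.

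Ms4a1, which encodes CD20, was not called at any time after exposure. On D0 controls had 5.19, 5.04, 5.45, 4.27 and 5.12, and exposed rats had 5.20, 5.34, 6.11, 5.62 and 5.64. Of these, 3 exposed rats lay above all controls, and the change of 0.57 had a limma adjusted p of 0.191. On D3 the change was -0.53 (0.253), with 7.15 in control replicate 4, an array on which the probe was not well above background. The later changes were -0.07, 0.22 and 0.22, and normexp turned the signs of the D28 and D180 values, to 0.00 and -0.02. Ms4a1 was well above background on 39 of 50 arrays.

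Cr2, the complement receptor CD21, varied most between rats, with an SE of 0.40 for each change. Its changes were -0.50 on D0, -0.62 on D3, 0.33 on D28, 0.31 on D90 and 0.35 on D180, and the limma adjusted p was 0.392 or more. The D0 interval ran from -1.31 to 0.30, so neither a fall nor a small increase was shown. In the D0 controls 1 rat had 7.01, on an array where the probe was not well above background, and the other 4 had 4.95 to 5.53. The probe was well above background on 24 of 50 arrays.

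Cxcr5, the follicle-homing receptor, was well above background on 1 of 50 arrays, that of exposed replicate 3 on D90 at 4.44. The 5 exposed rats of D90 (3.62, 3.60, 4.44, 3.61 and 3.49) all lay above the controls (2.44, 3.23, 2.68, 3.42 and 3.20), with a limma adjusted p of 0.241. No fold is given, since both groups were near background. At this signal, Cxcr5 transcript was not measurable in these lobes on the other days.

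The exposure effects of different days were compared directly with the D0 effect. No member was called in any of the 4 comparisons, where 0.678% of all genes were called for D3, 1.61% for D28, 2.17% for D90 and 2.24% for D180, in either direction. At an unadjusted p under 0.05 the counts were 2, 0, 1 and 1 of 7, where 9.84, 13.1, 12.8 and 13.2% of all genes passed. Blnk on D180 passed the adjusted p without the fold limit, as 1005 of 25208 genes did. Its effect was smaller than on D0 by a difference of -0.52 ± 0.13 (SE, limma adjusted p = 0.0138). For Cd79b the difference between D180 and D0 was -0.09, with a 95% interval from -0.66 to 0.49. A Cd79b effect that persisted and one that had shrunk by over 1.5-fold both lie in that interval.

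Air-breathing rats differed between days as well. Control D3 exceeded control D0 for Ms4a1 by 1.06 ± 0.27 (means 6.07 and 5.01, limma adjusted p = 0.00893), the 1 of 7 called where 2.33% of genes were. By adjusted p alone, which 1855 of 25208 genes passed, Pou2af1 (0.43, 0.00157) and Blnk (0.33, 0.0251) were higher too. The Ms4a1 call ended without control D0 replicate 4 (0.87, adjusted p = 0.0538) or control D3 replicate 4 (0.79, 0.0591), with only the arrays of these days (0.189), and fell under the fold limit with normexp (0.52) and with the authors' own values (0.56).

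Control D28 against control D0 gave no call among the 7 (2.49% of genes). By adjusted p alone, which 1784 of 25208 genes passed, Pou2af1 was 0.41 higher (limma adjusted p = 0.0023). Cr2 was at -1.03 (limma adjusted p = 0.121, or 0.0412 at -1.29 without control D28 replicate 5). Of these Cr2 arrays, 1 of 5 on D28 and 2 of 5 on D0 were well above background. With slide as a block Cr2 on D28 passed both limits, as did Cxcr5 on D3, for which no value is given because 0 of 5 arrays in either group were well above background. Control D180 against control D90 gave none either (0.0198% of genes). The D0 controls had the lowest mean of the 10 groups for Cd79b (8.11), Blnk (6.66), Pou2af1 (10.11), Ms4a1 (5.01) and LOC100913063 (6.39), and for Cxcr5, near background. Control D0 replicate 4 was the lowest of its group in Cd79b, Ms4a1, Fcer2, Pou2af1 and LOC100913063. Levels of the early days (D0 to D28) and of the late days were on different slides, apart from 1 array, so differences in level between them cannot be told apart from slide.

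Between rats of the same group, the members varied together only in part. Over 50 arrays of deviations from group means, the 21 pairs of members had correlations from -0.33 to 0.60 with a median of 0.16, of which 5 were above 0.3 and 7 below 0. Cd79b followed LOC100913063 at 0.72, its partner chain in the receptor, Fcer2 at 0.60, Pou2af1 at 0.54 and Blnk at 0.42. The correlations of Cxcr5, near background, with the others were -0.33 to 0.01. These points share arrays, slides and lobes, so the values are descriptions.

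**Figure D3:**
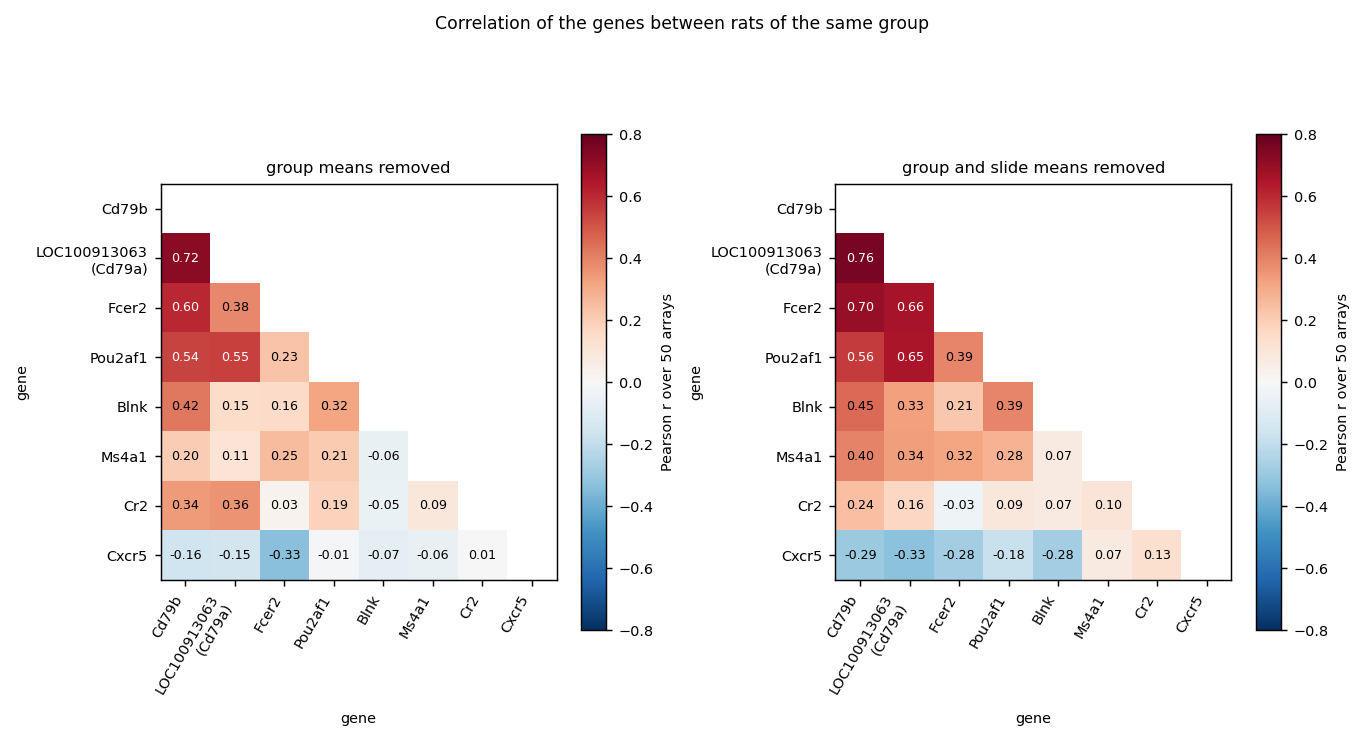
Pearson correlations of deviations from group means over 50 arrays, for each pair of B cell genes and the Cd79a counterpart, with group means removed (left) and with slide means also removed (right), coloured from blue (negative) to red (positive). On the left Cd79b with LOC100913063 (0.72) and with Fcer2 (0.60) are the highest cells and the Cxcr5 row is near or below 0, and on the right these pairs are at 0.76 and 0.70.

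Among the 10 genes most like the mean standardised deviation of the 7 members were Faim3 (r = 0.808; RefSeq Fcmr, the receptor for the Fc part of IgM), Srpk3 (0.667) and Ctsw (0.647), with Vps37d (0.638), Dhcr7 (0.621), Sstr3 (0.6), LOC100913063 (0.595), Eid2b (0.587) and RT1-DOb (0.585), the last a class II chain typical of B cells. With slide means also removed, 5 of the 10 remained, and Spib came first at 0.83, ahead of Faim3 (0.804). Spib encodes an ETS factor of B cells and plasmacytoid dendritic cells.

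Other genes of B cell receptor signalling gave 1 call over the 5 days. Of all genes, 2.77, 1.98, 0.861, 0.246 and 0.246% were over-expressed DEGs on those days. Of 20 tested genes for kinases, adaptors and surface receptors, 18 had a higher exposed mean on D0, with a median of 0.35, but none was called on D0, D28, D90 or D180. Blk, a B lymphoid kinase of the Src family, was the 1 called on D3 (0.66, limma adjusted p = 0.00831). The list's medians after D0 were 0.15, 0.21, 0.13 and 0.08. Among 16 transcription factors, only Irf8 was called, on D0 (0.64, 0.00318). This factor is active in B cells and in the myeloid line. In lists of this size, 1 call over the 5 days is near the share of all genes.

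Plasma cell genes were called on more days than the members were. Over D0, D3, D28 and D90, 1, 2, 1 and 2 of 6 were called, where 2.77, 1.98, 0.861 and 0.246% of all genes were over-expressed DEGs. Over the 5 days the list's medians were 0.28, 0.27, 0.33, 0.24 and 0.21, with 5, 5, 4, 5 and 5 of 6 higher. The log2 of its summed signal, in which the brightest genes weigh most, overlapped between the groups. It was 17.4 to 17.86 in controls and 17.32 to 17.58 in exposed rats on D28, and 17.22 to 17.96 and 17.07 to 17.47 on D90. Called genes were far dimmer than that sum, such as Mzb1 with a control mean of 8.02 and an exposed mean of 8.68 on D28. Of 6 tested, Tnfrsf17, the survival receptor BCMA, was higher on D0 (0.86, limma adjusted p = 0.00327) and D90 (0.82, 0.0429). Mzb1, an endoplasmic reticulum protein of antibody-making cells, was higher on D3 (0.78, 0.000145), D28 (0.67, 0.0036) and D90 (0.61, 0.021), and Derl3, of the same compartment, on D3 (0.65, 2.02e-05). No member of that list was called on D180. Its other 12 listed symbols, mostly immunoglobulin genes, were not tested under these names.

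Among 21 genes for B cell survival and lymphoid tissue, 4 were called on D0, when 2.77% of all genes were, while 12 of 21 had a higher exposed mean and the list's median was 0.07. The chemokine Ccl20 changed by 1.28 (limma adjusted p = 3.73e-10) and its receptor Ccr6 by 0.76 (0.000863). Ltb, the lymphotoxin chain that organises lymphoid tissue, changed by 1.27 (3.93e-15) and Il21r by 0.63 (0.00365). On D3, when 1.98% of all genes were over-expressed DEGs, Ltb (0.80, 2.9e-09) and Ccl20 (0.64, 0.000491) were still called. None was called from D28 on. Cd40lg, Il21 and Tnfsf11 were not well above background on any array on any of the 5 days.

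T cell markers were higher beside the B cell genes on D0. Of 15 tested, all had a higher exposed mean, with a median of 0.34, and 3 were called, when 2.77% of all genes were over-expressed DEGs. The 3 were Icos (1.06, limma adjusted p = 2.11e-07), Cd3g (0.67, 1.18e-05) and Cd5 (0.66, 0.000361). Their summed log2 signal was 12.48 to 12.83 in controls and 12.84 to 13.23 in exposed rats. Icos was also called on D3 (0.75, 0.000173) and D28 (0.60, 0.00759), as 1 of 15 on each day. Over-expressed DEGs were 1.98% and 0.861% of all genes on D3 and D28. Cd79b had a median within-group correlation of 0.40 with the 15 T cell markers (highest 0.70, Cd3g). Its medians were 0.16 with receptor signalling (highest 0.79) and 0.10 with B cell transcription factors (highest 0.70). They were -0.02 with plasma cell genes (highest 0.39) and 0.00 with the 14 macrophage markers (highest 0.315).

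Other cell types were read in the same way, and their part in the B cell results was not tested. Of 10 neutrophil markers, S100a8 and S100a9 were called on D0 (1.37 and 1.69) and D3 (1.56 and 1.68), and S100a9 on D28 (0.88). Over-expressed DEGs were 2.77, 1.98 and 0.861% of all genes on D0, D3 and D28. The list had 6, 9 and 4 of 10 higher on those days, with medians of 0.21, 0.32 and -0.12. The summed neutrophil list ran from 15.00 to 15.57 in controls and 16.45 to 17.01 in exposed rats on D0. On that day S100a9 had a control mean of 14.62 and an exposed mean of 16.31, and S100a8 had 12.98 and 14.35. The sum therefore mostly repeats these called genes. Of 10 dendritic cell markers, Clec9a (0.66) and Siglech (1.57) were called on D0, when 2.77% of all genes were over-expressed DEGs. On D3 Clec9a (0.77), Siglech (0.87) and Irf7 (0.79) were called, when 1.98% were. The dendritic list had 7 and 8 of 10 higher on D0 and D3, with medians of 0.13 and 0.36. Xcr1 and Cd209a were not well above background on any array of any day. The summed dendritic list was 13.63 to 14.01 in controls and 13.78 to 13.97 in exposed rats on D0. On D3 it was 13.88 to 14.16 and 14.08 to 14.57.

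Markers of thymus and lymph node stroma, the other lymphoid tissues that a dissected lobe might carry, gave no higher call, and Chst4 was lower on D3 (-0.80, limma adjusted p = 0.000927). Rag1, Rag2, Dntt and Foxn1 were not well above background on any D0 array, and the summed list ran from 9.40 to 10.11 in controls and 9.18 to 9.79 in exposed rats on that day. All 14 markers of lung epithelium and endothelium were well above background on at least 1 array each day. Of these, Hopx, of alveolar type I cells, was lower on D3 (-0.65, 0.0176), or -0.47, under the fold limit, with slide as a block.

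**Figure D4:**
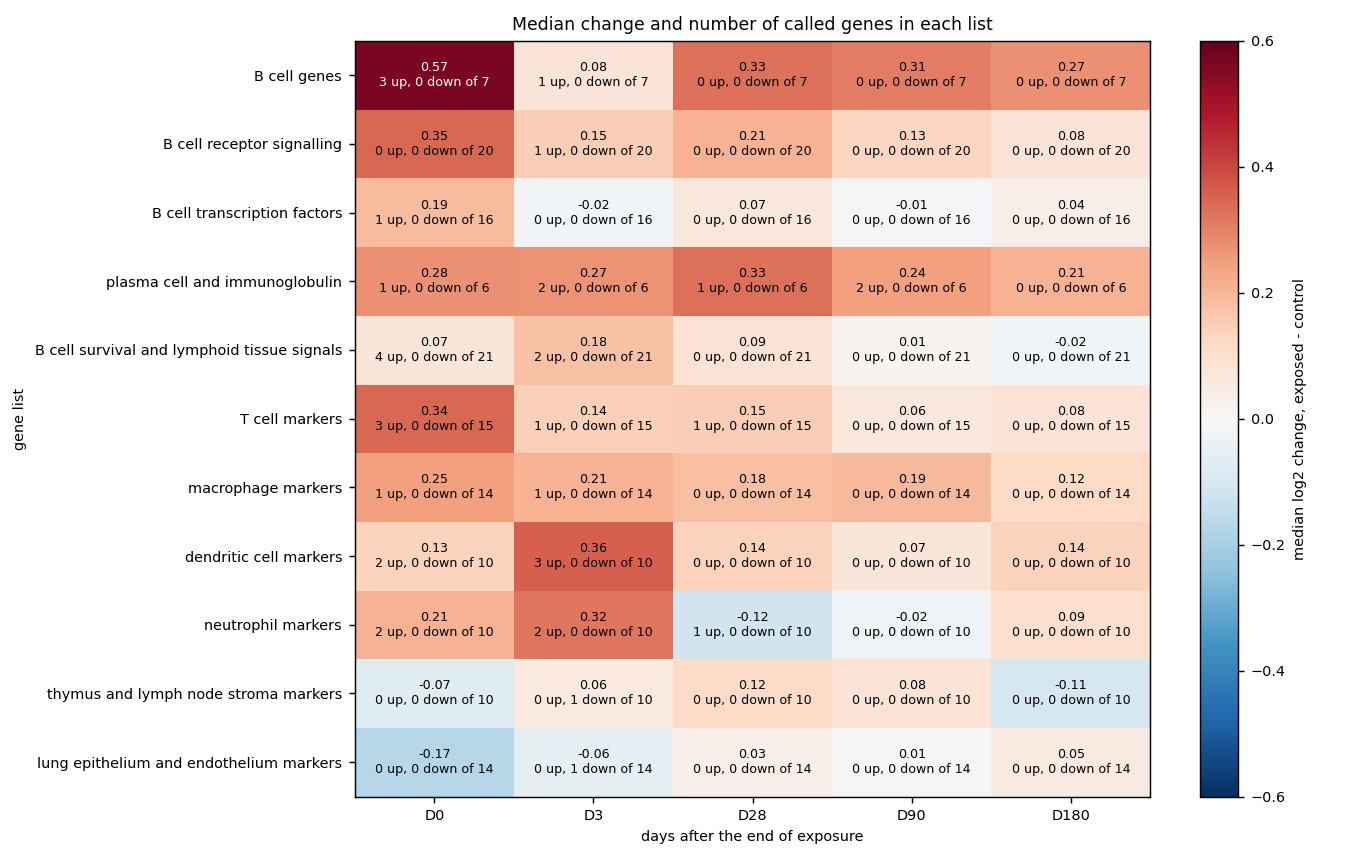
Median change in log2 signal, exposed minus control, of the B cell genes and of each gene list (rows) by day (columns), in colour and as the upper number of each cell, above the number of genes called higher (up) and lower (down) of those tested. Of the lists shown the B cell genes have the highest D0 median, 0.57, beside 0.35 for receptor signalling and 0.34 for T cell markers. That 0.57 is the value of Ms4a1, a dim probe that was not called.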

How the data were processed

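RNA from 50 lung lobes was hybridised to Agilent one-colour (Cy3) arrays of 62976 spots, 58717 of them for genes. The deposited scanner files hold intensity values per spot from Agilent Feature Extraction 11.0.1.1, whose processed signal the authors' software had already corrected for background. The authors also deposited a table of normalized intensity values (58753 rows), used here as an alternative. Each replicate was a different rat, and the members and gene lists were chosen with earlier results of these data known. Processed signals were averaged per probe, log2 transformed and quantile normalized here. Probes that exceeded the 308 negative control spots (their 95th percentile) on 5 arrays or more were kept, which left 29549 of 30367, and the probe with the highest mean signal stood for a gene. Well above background is the scanner software's own flag.

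limma 3.58.1 (R 4.3.3) fitted a mean per group over all arrays, with Benjamini-Hochberg adjustment over 25208 genes and two-sided tests. A gene was called at 1.5-fold and an adjusted p under 0.05. The methods of the study name batch terms without saying which, so slide was an alternative. The arrays lay on 7 slides, 4 with D0, D3 and D28 and the others with D90, D180 and 1 array of exposed D3. Median signals were 198.0 to 473.5, 68.7 to 84.5% of gene spots were well above background, and precision was limited by the number of arrays. Members were named on every day, list genes where called, and likeness ranked 10 genes, 1 of which is not reported here. The fit was tested on simulated data. Other settings were 75th percentile scaling, normexp with offset 50, other filters, all probes of a gene, the arrays of the days compared, a replicate block, no fold limit and omission of each array. For 84 spots the gene name differed between arrays after spreadsheet conversion, and the most common name without a date pattern was used where any array held one.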

Additional observations from a re-analysis of the deposited data

Results flagged for a closer look

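Single rats stood apart from their groups of 5 in 7 of the 80 groups examined for the 8 probes, where chance alone gives about 1 in 20. Ms4a1 was at 6.94 in control D180 replicate 2, with the next rat at 5.33, and at 6.13 in exposed D3 replicate 5, with the next at 5.47. Blnk was at 7.47 in control D180 replicate 4, the rat that was also highest in Cd79b. Cr2 was at 7.01 in control D0 replicate 3 and Pou2af1 at 10.69 in control D28 replicate 2. Cxcr5 was at 3.23 in exposed D0 replicate 1 and at 4.44 in exposed D90 replicate 3, of which only the latter was well above background.

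The exposure effect on Blnk differed between D180 and D0 by -0.52 in the direct test (limma adjusted p = 0.0138), with a slide block value of -0.51 (0.0056). For Cxcr5 the exposed and control values of D3 and D90 parted in opposite ways, by 1.30 between the days, which was not tested. No array of either D3 group or of the D90 controls was well above background, so no direction is drawn from it.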

How the results depend on the processing

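Of 745 single-gene values under other settings, 726 stayed on the same side of the limits, 17 lost the call and 2 gained it. Most of the 745 belonged to changes that were never called. All 17 losses fell on the called ones, which were Cd79b, Blnk and Fcer2 on D0 and Blnk on D3. Each of these was read under 9 other settings (8 for Fcer2) and with each of 10 rats left out. The sign turned in 16, for 0 of which the original adjusted p was under 0.05. The D0 count of 3 called members became 0 with normexp, 0 in the authors' table and 1 with only the D0 arrays. The D3 count of 1 became 0 with normexp and 0 in the authors' table. Without the fold limit the counts were 2 on D28, 1 for the effect of D180 against D0, 3 for control D3 against D0 and 1 for control D28 against D0. Of the 25208 genes, 978, 1005, 1855 and 1784 passed in these comparisons, in either direction. With 75th percentile scaling, the effect of D180 against D0 gave 1 call, Blnk at -0.64. For control D3 against D0 the count of 1 became 0 with normexp, 0 in the authors' table, 0 with only those arrays and 2 with the slide block, which gave 1 for control D28 against D0. The 33 list calls became 19 with normexp, and 5 of the 10 most similar genes remained after removal of slide means. The cause of these changes was not tested.

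Leaving out 1 array gave counts of 1 to 3 on D0, 1 to 1 on D3, 0 to 0 on D28 and D90, 0 to 1 on D180, 0 to 0 for each difference between days, 0 to 1 for control D3 and for control D28 against D0 and 0 to 0 for control D180 against D90. The D0 count was 1 without control D0 replicate 4 or exposed D0 replicate 3. With the replicate number as a block, the counts stayed at 3 on D0, 1 on D3 and 0 on the other days, and the replicate block changed no member's call. Same-numbered rats were not paired: of 25 pairs, 8 had a correlation of deviations over 0.1 (range -0.34 to 0.45), and 7 exposed arrays correlated best with their own number. Signals close to background limit Cxcr5, Cr2 and Fcer2.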

Other observations

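Antibody genes, which the array names mostly by transcript, were read by description after their values had been seen, as 9 probes for immunoglobulin chains. Exposed means were higher in 8, 9, 8, 9 and 8 of 9 on D0, D3, D28, D90 and D180, with medians of 0.65, 0.67, 0.71, 0.66 and 0.57. Of the 9, 2, 2, 2, 1 and 0 were called, where 2.77, 1.98, 0.861, 0.246 and 0.246% of all genes were over-expressed DEGs. A probe for immunoglobulin lambda-like polypeptide 5-like (transcript variant X1), named ENSRNOT00000050106, was called on D0 (0.63, limma adjusted p = 0.0127), D3 (0.93, 0.000262) and D28 (0.94, 0.000677), and showed 0.67 on D90 (0.0551) and 0.51 on D180 (0.236). The joining chain that links IgA and IgM units, named ENSRNOT00000004866, was called on D3 (0.60, 0.0169) and D90 (0.80, 0.00902). The lambda constant 2 probe ENSRNOT00000057971 was called on D0 (1.26, 0.0316), with a control SD of 0.14 and an exposed SD of 1.18, and the IgG heavy chain LOC362795 on D28 (1.53, 0.027). Immunoglobulin genes are near-identical copies, so a probe may read several of them.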
